A study of Mus musculus with 8 samples.

Results

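The secreted ligands of the TGF-beta family and the proteins that receive or block them were followed through a Septin9 knockdown in mouse muscle progenitors. The 10 genes described were taken by symbol from the 42391 gene entries counted: the ligand genes Tgfb1, Tgfb2, Tgfb3, Mstn, Inhba and Bmp4, the receptor gene Tgfbr2, and Smad7, Fst and Bmper, whose products act on the signal. All 10 were listed in the count table. Septin9, a GTP-binding protein that builds cytoskeletal filaments, was depleted with 1 siRNA, and a non-targeting siRNA served as the control.

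C2C12, an established mouse myoblast line, received 50 nM siRNA, which amounted to 100 nM for the first 5 h. Its RNA was collected 60 h after transfection, of which the last 12 h were spent in differentiation medium. Primary myoblasts had been grown out of hindlimb muscle of mice aged 5 weeks, passed over collagen for 1 h to remove attached non-myogenic cells, and were harvested 48 h after transfection while still in proliferation medium. Controls were labelled WT and siRNA samples Septin 9 KD, with no other allele named, and the study's methods describe 2 independent experiments, so each of the 4 groups held 2 samples and each siRNA sample had a control sample of the same replicate number. Strain, sex and number of mice were not given in the sources used here.

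Ligands of this family bind pairs of type II and type I receptor kinases at the cell surface, which then phosphorylate Smad proteins that enter the nucleus. TGF-beta, activin and myostatin signal mainly through Smad2 and Smad3, and BMPs through Smad1, Smad5 and Smad9. In muscle, myostatin limits growth and TGF-beta holds back differentiation and fusion of myoblasts, while follistatin, which binds activin and myostatin, promotes growth.

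Between 20898611 and 27223414 reads were counted per sample. Values are given as CPM, a gene's reads relative to the library's total, after scaling by the trimmed mean of M-values (TMM). Septin9 fell from 430 and 441 CPM to 151 and 189 CPM in C2C12 cells, a log2 fold change of -1.36 ± 0.08 (SE, adjusted p = 5.11e-09 by the quasi-likelihood test of edgeR, adjusted after Benjamini and Hochberg). In primary myoblasts it fell from 365 and 459 CPM to 199 and 157 CPM, a log2 fold change of -1.21 ± 0.15 (adjusted p = 0.000134 in edgeR). The 8 myogenic marker genes summed to between 998 and 7801 CPM per library, and markers of endothelial cells, macrophages and Schwann cells to between 0.0746 and 4.72 CPM. Pericyte markers summed to at most 0.75 CPM in C2C12 cells and to 52.3 to 66.0 CPM in primary myoblasts, nearly all of it Rgs5 and Abcc9. Fibroblast markers, 8 in all, summed to 63.7 to 95.2 CPM in C2C12 cells, mainly Ly6a. The 2 primary myoblast experiments differed in such markers: the fibroblast markers summed to 9.10 and 8.35 CPM (control and siRNA) in replicate 1 and to 72.1 and 95.8 CPM in replicate 2. Of these, Pdgfra stood at 1.00 and 0.86 CPM against 30.8 and 31.7 CPM, while Lum, Dpt and Pi16 stayed under 0.5 CPM in these 4 libraries. The 10 muscle differentiation genes of the lists summed to 13985 and 17647 CPM in replicate 1 and to 3944 and 9308 CPM in replicate 2.

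Promoter sequence is shown for Mstn, Inhba and Bmper, the genes with a called change after the knockdown for which RefSeq gave one (GRCm38.p6, the build of the counts). Tgfb3, the fourth such gene, had no entry, and 7 of the 10 genes had one. Each line gives the 250 bases before a transcription start in the direction of the gene, with matches to 4 motifs in capitals: the E-box CAGCTG, the Smad box CAGAC, the TEAD element GGAATG and the AP-1 site TGANTCA, searched on both strands.
Mstn (chr1:53061390-53061639, plus strand): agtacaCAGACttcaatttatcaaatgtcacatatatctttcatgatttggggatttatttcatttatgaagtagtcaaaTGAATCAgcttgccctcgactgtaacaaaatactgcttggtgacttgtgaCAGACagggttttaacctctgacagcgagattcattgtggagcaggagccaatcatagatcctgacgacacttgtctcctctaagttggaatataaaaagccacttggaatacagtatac
Inhba (chr13:16011601-16011850, plus strand): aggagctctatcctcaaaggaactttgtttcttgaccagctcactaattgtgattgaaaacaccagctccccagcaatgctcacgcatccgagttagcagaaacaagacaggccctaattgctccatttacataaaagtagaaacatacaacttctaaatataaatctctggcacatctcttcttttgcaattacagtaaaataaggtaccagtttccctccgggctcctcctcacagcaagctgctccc
Bmper (chr9:23222826-23223075, plus strand): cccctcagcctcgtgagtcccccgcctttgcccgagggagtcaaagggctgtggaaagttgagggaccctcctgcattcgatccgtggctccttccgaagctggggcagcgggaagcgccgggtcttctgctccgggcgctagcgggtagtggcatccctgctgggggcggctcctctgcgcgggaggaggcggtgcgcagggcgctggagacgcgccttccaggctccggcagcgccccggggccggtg
The Mstn window held the Smad box at 244 and 120 bases before the start. At 170 bases before it lay TGAATCA, a match to the AP-1 pattern as searched, in which N allowed any middle base. For Inhba, with 3 RefSeq transcripts, the start used lies inside the gene and is the first base of the gene in GENCODE (chr13:16011851), so the window does not precede the outermost RefSeq start, and the Tgfb2 window likewise precedes an inner start. No motif matched in the Inhba or Bmper window, nor in those of Tgfb1 and Bmp4. The Tgfb2 window held the Smad box at 221 and 204 bases before the start and the Tgfbr2 window held it once, at 160 bases. The Smad box occurred in 42.2% of the 32851 promoter windows of the table, the E-box in 13.0%, the TEAD element in 12.6% and the AP-1 site in 6.75%. The 4 called genes lie at chr1:53061640-53068079 (Mstn), chr13:16004256-16031609 (Inhba), chr9:23223076-23485215 (Bmper) and chr12:86056743-86079041 (Tgfb3). The windows differed in composition, from 38.4% G and C in Mstn to 71.6% in Bmper and 75.2% in Tgfb1.

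The first question was which of these signals each cell type carried without Septin9 depletion. C2C12 controls held Bmp4 and no count of Mstn, and primary myoblast controls held Mstn and at most 3 counts of Bmp4. Mstn, the gene of myostatin, had 0 counts in both C2C12 control libraries and 1484 and 163 counts in the primary myoblast controls. Taking 3 counts per library as the floor that 0 counts allow, its mean CPM was at least 283-fold higher in primary myoblasts. The bound rested on replicate 1: it was 516-fold for that library alone and 49.1-fold for replicate 2 alone. Bmp4, a ligand known for bone formation, had 1019 and 2208 counts in the C2C12 controls and 0 and 3 in the primary myoblast controls. That is a ratio of 1098 in CPM, with a 95% counting interval from 375 to 5327 that covers counting error only.

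Of the 10 genes, 7 passed adjusted p under 0.05 and a difference of at least 1.5-fold between the controls in the edgeR test, where 37.6% of the 17918 genes tested did. Besides Mstn and Bmp4 these were Bmper, Tgfbr2 and Tgfb1, lower in primary myoblasts, and Fst and Smad7, higher there. Bmper, a secreted protein that binds BMPs, was 10.6-fold lower (log2 -3.40 ± 0.27, SE, adjusted p = 0.000436, edgeR). Tgfbr2, the type II receptor that binds TGF-beta, was 4.18-fold lower (log2 -2.06 ± 0.15, adjusted p = 0.000301 in edgeR), and Tgfb1, the most widely made TGF-beta, 2.47-fold lower (log2 -1.30 ± 0.37, adjusted p = 0.0306 in edgeR). Fst, the gene of follistatin, was 4.03-fold higher (log2 2.01 ± 0.21, adjusted p = 0.000961 in edgeR). Smad7, an inhibitory Smad that the pathway itself induces, was 2.53-fold higher (log2 1.34 ± 0.21, adjusted p = 0.00343 in edgeR). The Tgfb1 call was lost without C2C12 control replicate 1 (adjusted p = 0.0861, edgeR), without C2C12 control replicate 2 (adjusted p = 0.0926) or without primary myoblast control replicate 1 (log2 -0.89, adjusted p = 0.1), and the Mstn call without either C2C12 control. Cell type, medium, culture stage and time after transfection all separate these groups and cannot be told apart, nor can fewer cells of a type and less RNA per cell in bulk RNA.

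The other 3 ligand genes did not pass. Tgfb2 differed by log2 -0.67 ± 0.28 (adjusted p = 0.0975, edgeR) and Tgfb3 by log2 -0.62 ± 0.45 (adjusted p = 0.304 in edgeR). Inhba, which encodes the beta-A subunit of activin A, differed by log2 0.49 ± 1.25 (adjusted p = 0.774 in edgeR), and its direction rested on 1 library. Without primary myoblast control replicate 2 the difference was log2 -2.41.

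**Figure D1:**
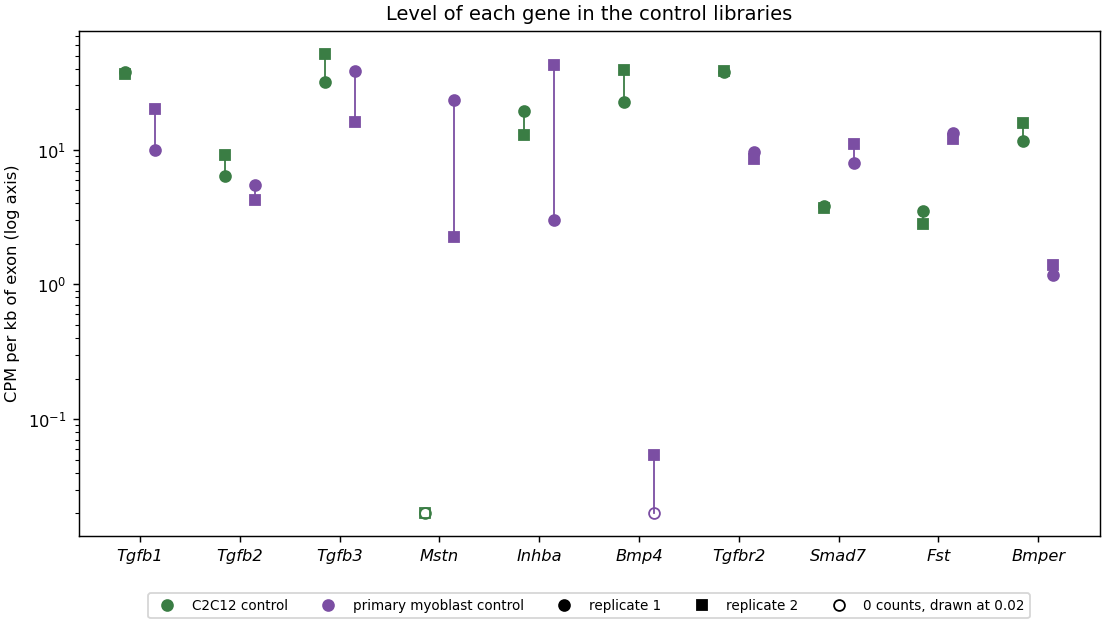
Level of each of the 10 genes in the 4 control libraries, in CPM per kb of exon on a log axis (green, C2C12; purple, primary myoblasts; circle, replicate 1; square, replicate 2; lines join replicates). Mstn stands at 0 counts in C2C12 and Bmp4 at 0 and 3 counts in primary myoblasts, and the purple lines of Mstn and Inhba span about a factor of 10.5 and 14.0.

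Levels of different genes were compared as CPM per kb of exon, with all 8 libraries scaled together. In C2C12 controls the order ran from Tgfb3 (41.4 ± 13.8 CPM per kb, SD, n = 2) over Tgfbr2 (38.0 ± 0.75), Tgfb1 (37.1 ± 0.66) and Bmp4 (30.9 ± 11.9) to Inhba (16.1 ± 4.57), Bmper (13.7 ± 2.91), Tgfb2 (7.74 ± 1.87), Smad7 (3.75 ± 0.057), Fst (3.15 ± 0.50) and Mstn at 0. The ranges of the replicates overlapped among the first 4 genes and between Inhba and Bmper, and did not overlap between the other neighbours. In primary myoblast controls Tgfb3 (27.0 ± 15.7 CPM per kb), Inhba (22.6 ± 27.7), Tgfb1 (15 ± 7.18) and Mstn (12.9 ± 15.1) could not be ordered, because the replicates of each overlapped those of the next. Fst (12.7 ± 0.84) overlapped Mstn and lay above Smad7 (9.48 ± 2.13), which overlapped Tgfbr2 (9.09 ± 0.69). Tgfb2 (4.86 ± 0.89), Bmper (1.29 ± 0.16) and Bmp4 (0.027 ± 0.038) followed, each below the one before in both libraries. Of the 3 TGF-beta genes, Tgfb3 had the highest mean in both cell types and Tgfb2 the lowest.

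The second question was what changed in primary myoblasts after Septin9 siRNA. Of the ligand genes called, 2 rose and 1 fell: Tgfb3 and Mstn were higher and Inhba was lower in Septin9-deficient cells of both replicates. Tgfb1 was also higher and Tgfb2 lower in both pairs, but neither was called. Of the 10 genes, 9 passed the filter on low counts and 3 were called, where 3.17% of the 17117 genes tested were (2.87% higher and 0.298% lower, so that 90.6% of the calls were higher, and 66.2% without replicate 2), with a call defined as adjusted p under 0.05 together with at least a 1.5-fold difference. Adjusted p alone was passed by the same 3 genes and by 4.99% of all genes. Over these 9 genes the median was log2 -0.08, beside 0.01 over all genes tested.

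Tgfb3 read 125 CPM (control) and 177 CPM (siRNA) in replicate 1 and 52.4 and 111 CPM in replicate 2. Septin9-deficient cells were higher in both pairs, but the groups overlapped, since the control of replicate 1 exceeded the Septin9-deficient cells of replicate 2. The fitted increase was 1.73-fold, a log2 fold change of 0.79 ± 0.13 (SE, adjusted p = 0.00147, edgeR quasi-likelihood test). The pairs gave log2 ratios of 0.50 and 1.09.

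Mstn read 61.9 CPM (control) and 82.8 CPM (siRNA) in replicate 1 and 5.88 and 13.6 CPM in replicate 2, from raw counts of 1484, 1932, 163 and 288. It was higher after the knockdown in both pairs, by log2 0.42 and 1.20, and the fit gave a 1.66-fold increase (log2 0.73 ± 0.15, adjusted p = 0.00674, edgeR). The difference between the 2 controls was 10.5-fold, larger than that between control and Septin9-deficient cells. The call was lost when library size alone (adjusted p = 0.0777) or the DESeq2 size factors (adjusted p = 0.0612) scaled the edgeR counts.

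Inhba read 18.8 CPM (control) and 12.7 CPM (siRNA) in replicate 1 and 262 and 136 CPM in replicate 2. It was lower after the knockdown in both pairs, by log2 -0.56 and -0.95, and the fit gave a 1.72-fold decrease (log2 -0.78 ± 0.12, adjusted p = 0.00102, edgeR). Here the controls differed by 14.0-fold, in the opposite sense to Mstn. Among 17117 genes the difference between the control replicates ranked 82nd in size for Inhba, 130th for Mstn and 1467th for Tgfb3, and the median absolute log2 difference over all genes was 0.24. The fibroblast marker sum was higher in replicate 2 together with Inhba, and the sum of muscle differentiation genes was higher in replicate 1 together with Mstn and Tgfb3. Within pairs the fibroblast sum went from 9.10 to 8.35 and from 72.1 to 95.8 CPM while Inhba fell. The muscle differentiation sum went from 13985 to 17647 and from 3944 to 9308 CPM while Mstn and Tgfb3 rose. The part of either in the 3 results was not tested. Without replicate 2 all 3 genes kept their direction and fell under the fold threshold (Tgfb3 log2 0.52, Mstn log2 0.44, Inhba log2 -0.55), and only Tgfb2 was called. Without replicate 1, Fst and Bmper were called beside them, 5 genes in all. When the replicate pairing was left out of the edgeR fit, none of the 10 and none of all genes was called, in either cell type.

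**Figure D2:**
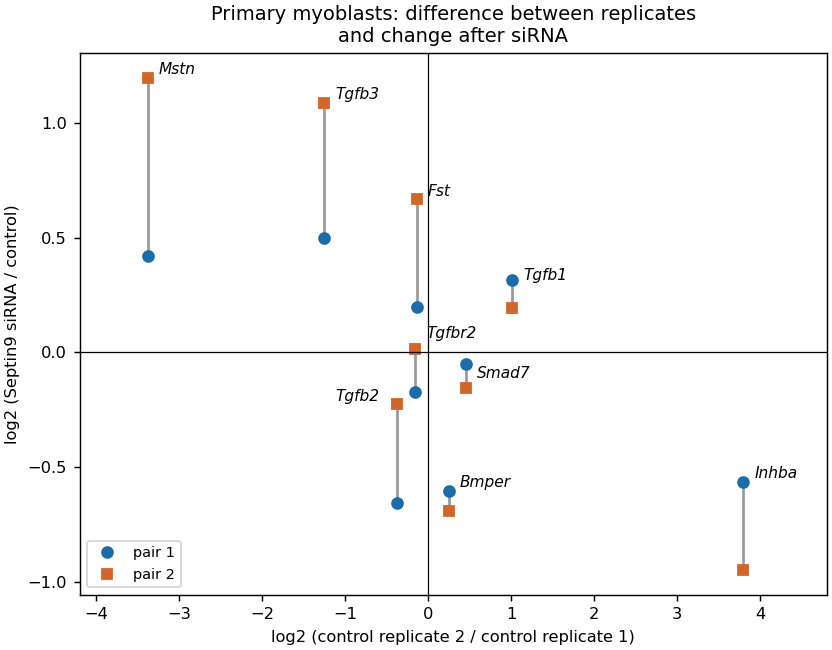
Primary myoblasts: the log2 difference between the 2 control replicates (horizontal) and the log2 ratio of Septin9-deficient to control cells in each pair (vertical; blue circle, pair 1; orange square, pair 2) for the 9 genes tested. Inhba lies at 3.80 and Mstn at -3.38 on the horizontal axis, while no pair ratio exceeds 1.20 in size.

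The remaining genes of primary myoblasts did not pass the test. By the adjusted p Fst came closest, while its change was short of 1.5-fold: it read 36.5 CPM (control) and 41.9 CPM (siRNA) in replicate 1 and 33.2 and 52.8 CPM in replicate 2, higher in both Septin9-deficient cultures than in either control (log2 0.43 ± 0.12, adjusted p = 0.0504, edgeR). Tgfb2 read 27.7 CPM (control) and 17.6 CPM (siRNA) in replicate 1 and 21.3 and 18.2 CPM in replicate 2. Both of its Septin9-deficient values lay under both controls (log2 -0.44 ± 0.13, adjusted p = 0.0639 in edgeR). Bmper read 4.34 CPM (control) and 2.83 CPM (siRNA) in replicate 1 and 5.16 and 3.16 CPM in replicate 2. Its raw counts were 104, 66, 143 and 67, and again the groups did not overlap (log2 -0.66 ± 0.22, adjusted p = 0.109 in edgeR). The share of all genes whose groups separated in this way was not counted, so the separation of Fst, Tgfb2 and Bmper is description only. For Bmper the fit was past the fold threshold and short of the adjusted p, and it was called with no filter on low counts (adjusted p = 0.0492, edgeR) and with all 8 samples in 1 fit (adjusted p = 0.0386, edgeR), which made 4 genes of the 10 in each. Fst passed the adjusted p with no filter (0.00982, edgeR) and with at least 10 counts in every sample (0.0435), and stayed under the fold threshold in both.

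Tgfb1 read 21.0 CPM (control) and 26.2 CPM (siRNA) in replicate 1 and 42.4 and 48.6 CPM in replicate 2 (log2 0.25 ± 0.11, adjusted p = 0.265, edgeR). Smad7 read 33.9 CPM (control) and 32.8 CPM (siRNA) in replicate 1 and 46.7 and 41.9 CPM in replicate 2 (log2 -0.10 ± 0.11, adjusted p = 0.719 in edgeR). Tgfbr2 read 76.1 CPM (control) and 67.6 CPM (siRNA) in replicate 1 and 68.3 and 69.0 CPM in replicate 2 (log2 -0.08 ± 0.11, adjusted p = 0.792 in edgeR). For Tgfb1 and Smad7 the step between replicates was larger than the step between conditions, and the Tgfbr2 pairs had opposite signs. Bmp4 had 0, 4, 3 and 5 counts and was not tested.

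**Figure D3:**
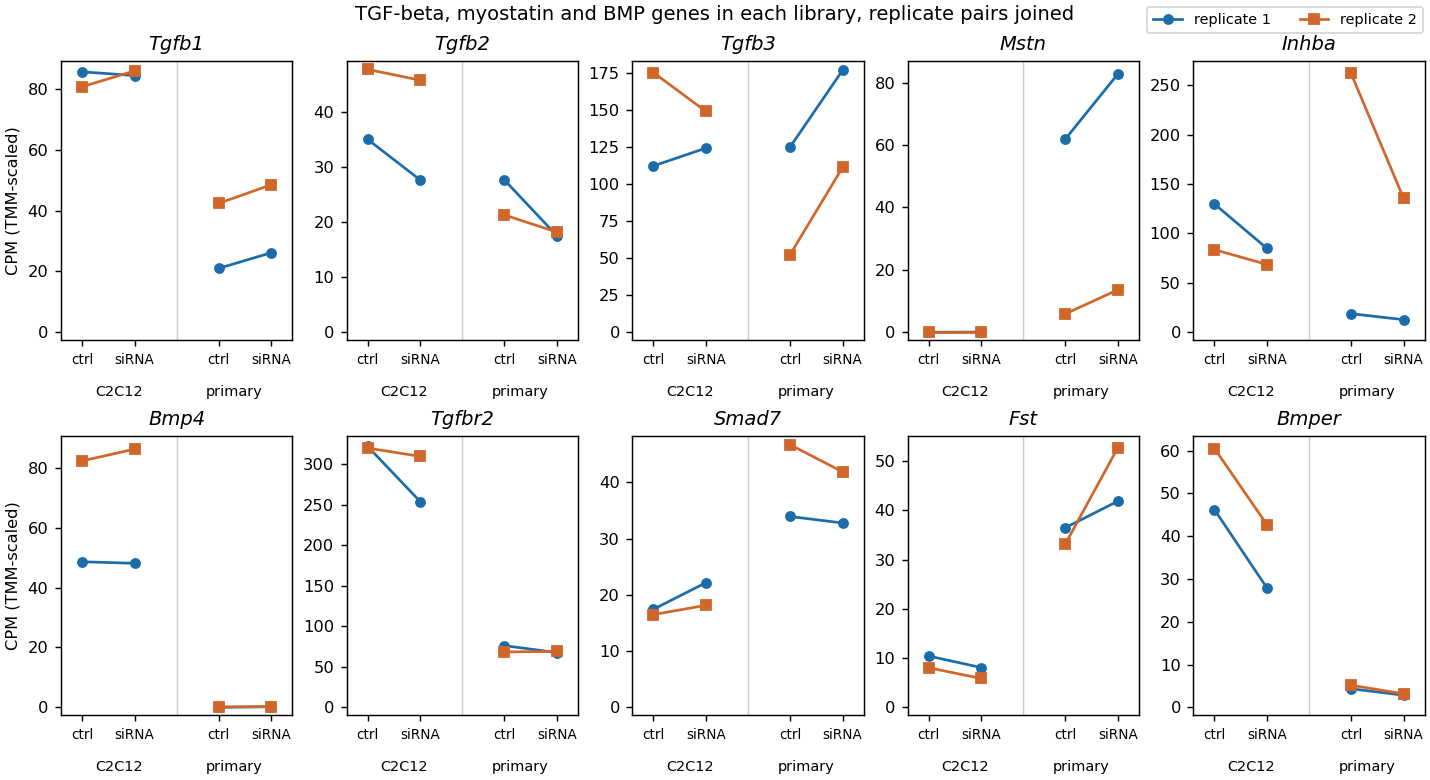
CPM of each gene in each of the 8 libraries, scaled by TMM within each cell type (ctrl, non-targeting siRNA; siRNA, Septin9 siRNA; blue circles, replicate 1; orange squares, replicate 2; lines join the pair). In primary myoblasts Tgfb3 and Mstn rise and Inhba falls in both pairs, with the pairs far apart in level, and in C2C12 cells Bmper falls from 46.2 and 60.5 to 27.9 and 42.7 CPM.

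In C2C12 cells at 12 h of differentiation, the decrease of Bmper was the single call among these genes. Of the 10, 9 passed the filter and 1 was called, where 1.57% of the 15814 genes tested were (0.828% higher and 0.74% lower, a split that turned to mostly lower genes with DESeq2, 38 of 100 higher, and with all 8 samples in 1 fit, 29 of 83). Over these 9 genes the median was log2 -0.19, beside -0.00079 over all genes. Bmper read 46.2 CPM (control) and 27.9 CPM (siRNA) in replicate 1 and 60.5 and 42.7 CPM in replicate 2. The Septin9-deficient values lay under both controls, and the fit gave a 1.52-fold decrease (log2 -0.61 ± 0.08, adjusted p = 4.26e-05, edgeR). The pairs gave log2 ratios of -0.73 and -0.50. This value sits just past the fold threshold: with scaling by library size alone it was -0.58 and was not called, and without replicate 1 it was -0.52 with an adjusted p of 0.298 in edgeR, also not called.

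Bmper and Inhba, 2 of the 9, passed the adjusted p, as 6.75% of all genes did, and Inhba stayed short of the fold threshold. Inhba read 130 CPM (control) and 84.8 CPM (siRNA) in replicate 1 and 83.6 and 68.5 CPM in replicate 2 (log2 -0.45 ± 0.08, adjusted p = 0.00113, edgeR). It was lower in both pairs, and the Septin9-deficient value of replicate 1 lay slightly above the control of replicate 2. Fst read 10.4 CPM (control) and 8.08 CPM (siRNA) in replicate 1 and 8.02 and 5.86 CPM in replicate 2 (log2 -0.41 ± 0.15, adjusted p = 0.112 in edgeR), from 137 to 218 raw counts. It was lower in both pairs and its groups overlapped narrowly.

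The receptor and the other genes did not pass the adjusted p in edgeR. Tgfbr2 read 322 CPM (control) and 254 CPM (siRNA) in replicate 1 and 320 and 310 CPM in replicate 2 (log2 -0.19 ± 0.07, adjusted p = 0.149, edgeR). Tgfb2 read 35.1 CPM (control) and 27.7 CPM (siRNA) in replicate 1 and 47.8 and 45.8 CPM in replicate 2 (log2 -0.19 ± 0.08, adjusted p = 0.203 in edgeR). Both had most of their difference in pair 1. Tgfb3 read 112 CPM (control) and 124 CPM (siRNA) in replicate 1 and 176 and 149 CPM in replicate 2, with opposite signs in the pairs (log2 -0.05 ± 0.08, adjusted p = 0.818 in edgeR). Tgfb1 read 85.8 CPM (control) and 84.5 CPM (siRNA) in replicate 1 and 80.9 and 86.1 CPM in replicate 2 (log2 0.04 ± 0.07, adjusted p = 0.853 in edgeR). Smad7 read 17.4 CPM (control) and 22.2 CPM (siRNA) in replicate 1 and 16.5 and 18.1 CPM in replicate 2, higher in both pairs (log2 0.24 ± 0.10, adjusted p = 0.191 in edgeR). Bmp4 read 48.7 CPM (control) and 48.2 CPM (siRNA) in replicate 1 and 82.4 and 86.4 CPM in replicate 2, and its experiments differed more than its conditions (log2 0.03 ± 0.07, adjusted p = 0.881 in edgeR). Mstn had 0 counts in 3 C2C12 libraries and 1 count in Septin9-deficient replicate 1, and was not tested.

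**Figure D4:**
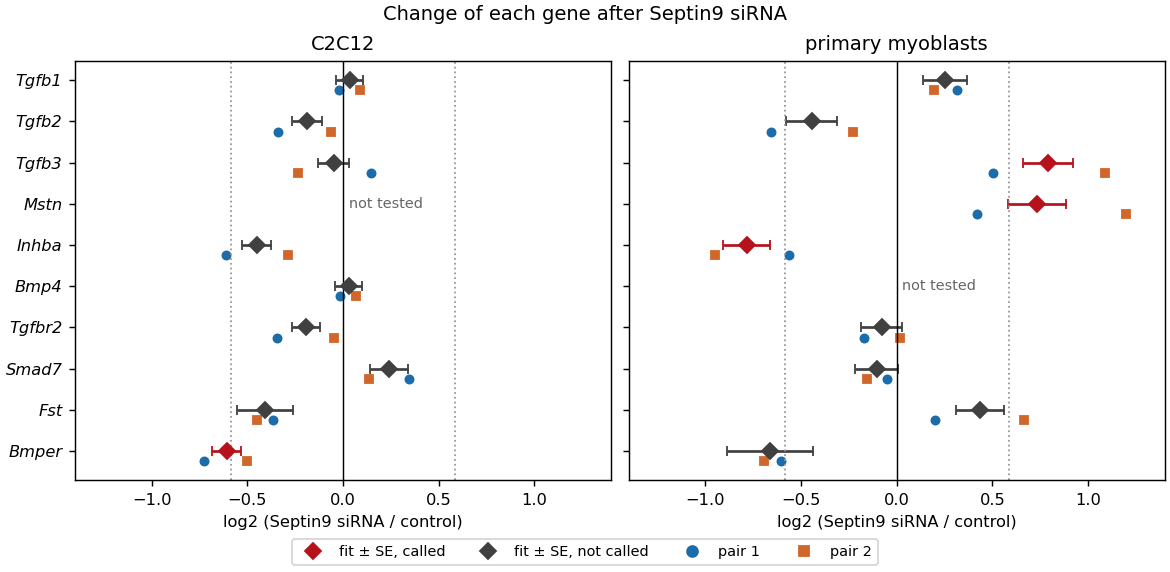
Log2 fold change of each gene after Septin9 siRNA in C2C12 cells (left) and primary myoblasts (right): diamonds are the edgeR fit with its SE (red where called), blue circles and orange squares the ratio of pair 1 and pair 2, dotted lines the 1.5-fold threshold in either direction. Bmper and Inhba lie on the lower side in every pair of both cell types, and Tgfb3 and Mstn are called in primary myoblasts.

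A single fit of all 8 libraries tested, through its interaction term, whether the response differed between the C2C12 and primary myoblast experiments. Cell type, medium, culture stage and time after transfection differ together here as well and cannot be told apart. None of the 10 genes passed adjusted p under 0.05 in edgeR, where 0% of the 17918 genes did. An unadjusted p under 0.05 in edgeR was found for 1469 genes and 4 of the 10. These 4 were Tgfb3, Fst, Smad7 and Bmp4, the last on at most 5 counts per primary myoblast library. DESeq2 called 17 genes, Tgfb3 among them (adjusted p = 0.0493). In edgeR the effect on Tgfb3 was larger in primary myoblasts than in C2C12 cells by log2 0.83 ± 0.19 (adjusted p = 0.294). For Fst the difference was likewise log2 0.83 ± 0.18 (adjusted p = 0.289 in edgeR), with both pairs lower in C2C12 cells and both higher in primary myoblasts. For Inhba it was log2 -0.36 ± 0.16 (adjusted p = 0.608 in edgeR) and for Bmper -0.06 ± 0.17 (adjusted p = 0.98 in edgeR). The difference has no readable value for Mstn and Bmp4, each of which had at most 5 counts per library in 1 of the cell types.

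Of the 8 genes tested in both cell types, 3 (Bmper, Inhba and Tgfb2) were lower in Septin9-deficient cells in all 4 pairs, as were 13.6% of the 15073 genes tested in both. None of the 8 was higher in all 4 pairs, as 12.9% of all genes were. For Bmper the 4 log2 ratios were -0.73 and -0.50 (C2C12) and -0.60 and -0.69 (primary myoblasts).

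The other genes of the pathway were counted by role, over 112 genes beside the 10. In primary myoblasts 94 were tested, 5 were called higher and none lower in edgeR, where 2.87% of all genes were called higher and 0.298% lower. By the adjusted p alone 7 were higher and 1 lower, where 4.99% of all genes passed. The median log2 fold change of the 94 was 0.07. At an unadjusted p under 0.05 in edgeR, 19 were higher and 5 lower, where 2864 of all 17117 genes tested passed in either direction. DESeq2 called Hjv alone. In C2C12 cells 82 were tested and neither edgeR nor DESeq2 called any. By the adjusted p alone 9 were higher and 8 lower in edgeR, where 6.75% of all genes passed. By the unadjusted p 17 were higher and 12 lower, where 2962 of all 15814 genes tested passed. The median was log2 0.03.

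Among receptors and co-receptors, Hjv was called in primary myoblasts, 1 of 15 tested. Hjv encodes hemojuvelin, a BMP co-receptor made in skeletal muscle and liver, and it read 84.2 and 132 CPM in replicate 1 and 25.5 and 69.5 CPM in replicate 2 (log2 1.03 ± 0.14, adjusted p = 0.000464, edgeR). Its replicates differed in the same sense as those of Mstn and Tgfb3. In C2C12 cells Hjv was near the floor, at 0.24 to 3.16 CPM. It was higher there in both pairs by a similar amount, without being called (log2 1.11 ± 0.33, adjusted p = 0.0535 in edgeR). Of the 17 secreted inhibitors tested, Chrd (chordin) and Nog (noggin), which both hold BMPs away from their receptors, were called higher in edgeR. Chrd read 3.92 and 6.51 CPM in replicate 1 and 6.82 and 13.5 CPM in replicate 2 (log2 0.87 ± 0.18, adjusted p = 0.00737 in edgeR). Nog read 6.05 and 11.6 CPM, then 5.05 and 7.36 CPM (log2 0.75 ± 0.18, adjusted p = 0.0217 in edgeR). Of 14 BMP response genes, Hey1 (log2 0.89 ± 0.18, adjusted p = 0.00629 in edgeR) and Nog were called higher, and Id1, Id2 and Id3, the usual transcriptional readouts of BMP signalling, had log2 fold changes of -0.05, -0.07 and -0.15. Smad6, in the same list, passed the adjusted p short of the fold threshold (log2 0.54 ± 0.14, adjusted p = 0.0275 in edgeR). It was named after its value was seen. In C2C12 cells Hey1 was also higher in both pairs, without being called (log2 0.69 ± 0.21, adjusted p = 0.0559 in edgeR). Of 10 TGF-beta and activin class ligands, Gdf1 was called beside Tgfb3, Mstn and Inhba (log2 0.85 ± 0.21, adjusted p = 0.0262 in edgeR), at 2.42 to 8.61 CPM. Gdf1 shares a transcript with Cers1, so its counts may belong to either gene. In C2C12 cells the Gdf1 pairs had opposite signs. None of the 16 Smads and regulators, 17 latency genes, 16 TGF-beta response genes and 8 BMP class ligands was called in primary myoblasts, and their medians ran from -0.10 to 0.41.

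**Figure D5:**
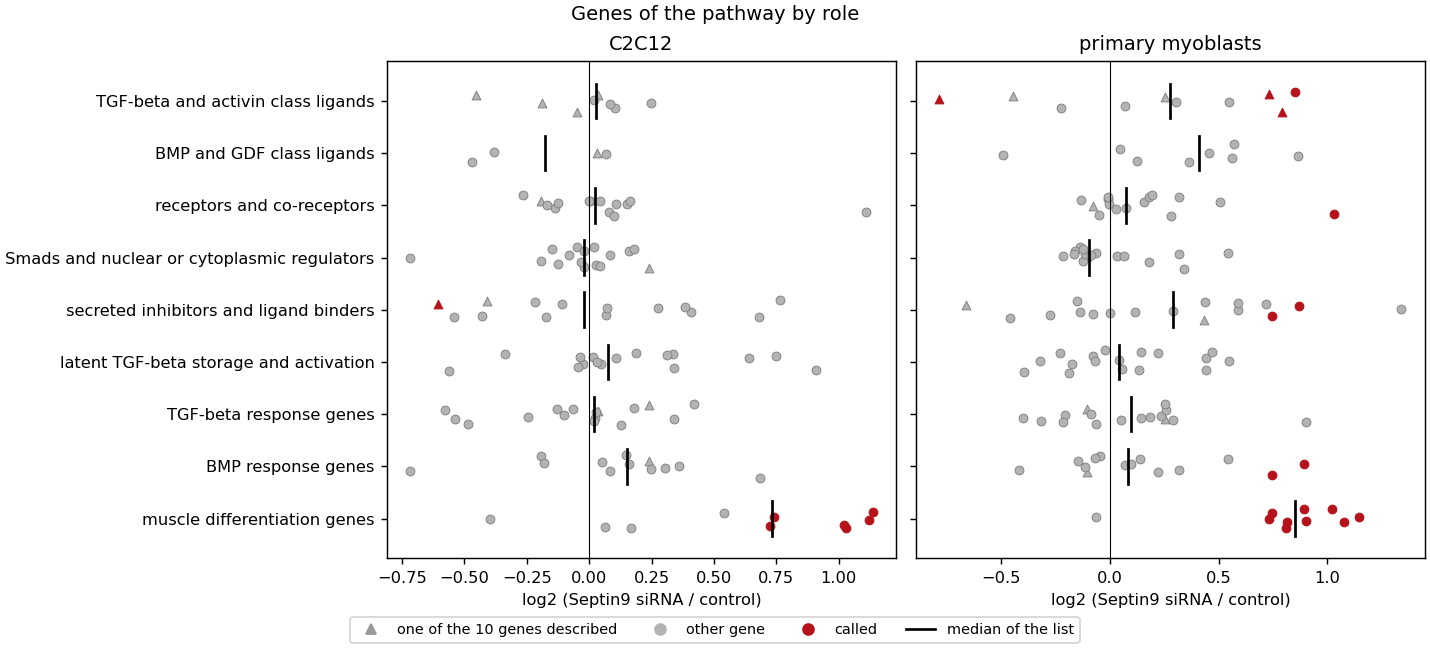
Log2 fold change after Septin9 siRNA of the genes of 8 pathway lists and of 10 muscle differentiation genes in both cell types (triangles, the 10 genes described; circles, other genes; red, called; black bar, median of the list). The pathway lists scatter about 0 in C2C12 cells, and the medians of the muscle differentiation genes lie at 0.73 and 0.85.

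In C2C12 cells, some TGF-beta response genes passed the adjusted p without reaching the fold threshold. Acta2 and Tagln, which encode proteins of the contractile apparatus, were lower by log2 -0.58 ± 0.09 and -0.49 ± 0.08 (adjusted p = 0.00029 and 0.000742, edgeR). Timp1, an inhibitor of matrix proteases, was higher by log2 0.42 ± 0.07 (adjusted p = 0.000477 in edgeR), as was Ltbp2 by 0.34 ± 0.07 (adjusted p = 0.00426 in edgeR), 1 of 16 latency genes tested, of which 2 were higher and 2 lower by that measure. The secreted inhibitors went both ways, with 3 of the 14 tested higher and 3 lower by the adjusted p. Beside Bmper, Grem1, a BMP antagonist, was lower by log2 -0.54 ± 0.07 (adjusted p = 0.000105 in edgeR) and Crim1 by -0.43 ± 0.08 (adjusted p = 0.00177 in edgeR). The BMP antagonists Chrd, Chrdl1 and Nbl1 were higher by log2 0.41 ± 0.12, 0.38 ± 0.08 and 0.27 ± 0.07 (adjusted p = 0.0473, 0.00782 and 0.031 in edgeR). Id2 and Id3 were higher by log2 0.36 ± 0.09 and 0.30 ± 0.08 (adjusted p = 0.0201 and 0.0212 in edgeR). These genes were chosen after their values were seen. Of the 10 muscle differentiation genes, 6 were called higher in C2C12 cells (Myog, myogenin, log2 1.03 ± 0.12, adjusted p = 2.28e-05 in edgeR) and 9 in primary myoblasts (Ckm, muscle creatine kinase, log2 1.14 ± 0.18, adjusted p = 0.000852 in edgeR). Of all genes tested, 0.828% and 2.87% were called higher. Acta1, of the same list, had fits of log2 -0.40 ± 0.13 in C2C12 cells and -0.06 ± 0.18 in primary myoblasts, neither called. It was also named after its values were seen.

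Between the controls, 24 of 95 other pathway genes tested were called higher in primary myoblasts and 16 lower, where 19.6% of all 17918 genes were higher and 18% lower. Of the BMP response genes 7 of 14 were higher and none lower, a split for which no test was made, among them Id1 (log2 3.43 ± 0.20), Id2 (log2 3.16 ± 0.15) and Id3 (log2 2.87 ± 0.26), at adjusted p of 0.000181, 0.000107 and 0.000643 in edgeR. Of 9 BMP class ligands tested, 5 were called higher in primary myoblasts and 1, Bmp4, lower. Gdf6, with the smallest adjusted p of the 5, read 16.4 and 15.3 CPM against 0.0955 and 0.149 CPM in C2C12 controls. Whether any ligand or the medium bears on the Id genes was not tested. Of the TGF-beta response genes 2 of 16 were higher and 5 lower. The 2 higher genes were Smad7 and Skil (log2 1.16 ± 0.16, adjusted p = 0.00223 in edgeR for Skil). Among the lower genes were Acta2 by log2 -1.73 ± 0.25 and Pmepa1 by -1.15 ± 0.16 (adjusted p = 0.0027 and 0.00233 in edgeR). Smad3, which carries TGF-beta and activin signals to the nucleus, was lower by log2 -1.26 ± 0.24 (adjusted p = 0.00798 in edgeR). Inhbb, the beta-B subunit of activin B, was lower by log2 -2.53 ± 0.31 (adjusted p = 0.0016 in edgeR), while Inha, which turns activin subunits into inhibin, was higher by log2 3.79 ± 0.51 (adjusted p = 0.00227 in edgeR).

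For each of the 4 genes called after the knockdown, the genes most alike across the 8 libraries were listed, by Pearson correlation of log2 CPM after the mean of each cell type was subtracted, among 13313 genes. Mstn was most like Hsd17b4 (r = 0.995), Megf6 (0.992) and Emc7 (0.991), and Tgfb3 most like Pigp (0.993, an entry listed as a further copy), Rassf3 (0.992) and Pdk1 (0.990). Inhba was most like Fam3c (0.995), Cd34 (0.994) and Snx9 (0.994), and Bmper most like Wipi1 (0.987), Nedd4l (0.986) and Myo6 (0.977). These libraries share replicate pairs and most of the variation of Mstn and Inhba lies between the 2 primary myoblast experiments, so the values describe a shared pattern over few points.

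Exons of Tgfb2, Tgfb3, Bmp4 and Fst overlap another gene on the opposite strand in GENCODE by 80 to 257 bases, and whether reads were counted by strand was not given in the sources used here.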

How the data were processed

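The authors aligned read pairs with STAR 2.7.2 to GRCm38.p6, counted them over genes with featureCounts 2.0.1 and deposited raw counts of the 8 samples, on which every value rests. The authors also deposited a normalized signal per cell type, in which ComBat-Seq had removed the difference between experiments and DESeq2 1.40.1 had set the scale. All its values were whole multiples (tolerance 0.01) of 1 step per sample, and the counts recovered this way served in an alternative.

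Samples were grouped by their labels, and 16 broken lines (the genes Dst, Huwe1, Mycbp2, Neb and Syne1) were left out. Each cell type was fitted alone in R 4.3.3 with edgeR 4.0.16 (filterByExpr, TMM, quasi-likelihood test), blocked by replicate number. Pairing comes from the study's methods, which state independent experiments whose difference was removed. Same-numbered samples deviated together over all genes (correlation 0.68 in C2C12 cells and 0.82 in primary myoblasts). P-values were adjusted over all genes tested. Genes were called at adjusted p under 0.05 and at least 1.5-fold (for the interaction at adjusted p alone). The control groups were compared without a block. SE is the log2 fold change over the root of F, and pair ratios used a prior count of 2.

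Lengths were the union of exons in GENCODE, and promoters and positions came from RefSeq on GRCm38.p6. The 10 genes and all lists were chosen with earlier results of these data known. The genes named are these 10, up to 3 called genes per pathway list and comparison, and the 3 genes most like each called gene (mean log2 CPM of at least 1), with exceptions stated. The code was tested on simulated data. Alternatives used other scalings, filters, DESeq2 1.42.0, no block, all 8 samples in 1 fit, and each replicate left out.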

Additional observations from a re-analysis of the deposited data

Results flagged for a closer look

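Fst and Smad7 had pair ratios of opposite sign in the 2 cell types, in both pairs of each. How many of all genes had such a sign pattern was not counted. Fst was lower after Septin9 siRNA in C2C12 cells and higher in primary myoblasts, a difference in effect of log2 0.83 ± 0.18 (adjusted p = 0.289 for the interaction in edgeR). The C2C12 value is from 12 h of differentiation. By qRT-PCR at a later time, the study reported higher Fst in Septin9-deficient C2C12 cells. Smad7 was higher in C2C12 cells. In primary myoblasts it was barely lower, by log2 -0.05 and -0.16 in the pairs and -0.10 ± 0.11 in the fit. Its difference in effect was log2 -0.35 ± 0.14 (adjusted p = 0.558 in edgeR). Neither gene was called in either cell type, and neither difference passed the threshold over all genes. Medium, culture stage and time after transfection differ along with cell type and cannot be told apart from it.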

How the results depend on the processing

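Of the 10 genes, 1 was called in C2C12 cells, 3 in primary myoblasts, 0 by the interaction and 7 between the controls. The last count was 5 to 7 under its 11 alternatives. Without the replicate block both knockdowns called 0 of the 10 and 0 of all genes. In C2C12 cells scaling by library size alone gave 0 and dropping the fold threshold gave 2 (Bmper and Inhba), and leaving out a pair gave 0 to 1. In primary myoblasts no filter and all 8 samples in 1 fit gave 4 each (with Bmper), and leaving out a pair gave 1 (without replicate 2) to 5 (without replicate 1). For the interaction DESeq2 gave 1 (Tgfb3) and no filter gave 2 (Tgfb3 and Fst), and leaving out a replicate gave 0 to 3, in fits with fewer samples. Signs turned where values were small or 1 library led. When a replicate was left out, Tgfb3 in C2C12 cells ran from -0.25 to 0.17, the interaction from -0.0234 to 0.24 for Tgfbr2 and from -0.15 to 0.0369 for Bmper, and Inhba between the controls from -2.41 to 1.38, all log2. A replicate block across cell types gave -0.43 for this Inhba difference. The cause was not tested where none is named.

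Over all genes, C2C12 calls went from 248 to 100 with DESeq2, 123 on the batch-corrected counts, 83 with all 8 samples in 1 fit and 98 without replicate 1. Primary myoblast calls went from 542 to 260 with the DESeq2 size factors, 206 with library size alone, 226 with DESeq2, 331 on the batch-corrected counts, 926 without replicate 1 and 358 without replicate 2. Higher genes made up 90.6% of those calls, 80.1% with library size alone and 66.2% without replicate 2. In C2C12 cells they made up 52.8%, 38.0% with DESeq2, 34.9% with all 8 samples in 1 fit and 62.7% with library size alone. The interaction called 0 genes, 255 with no filter, 17 with DESeq2 and 51 to 844 with a replicate left out. A pair left alone by an omission was assumed to vary like the other cell type. With 2 replicates per group, a change that passed no test here was not shown to be absent.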
